A study of Arabidopsis thaliana with 12 samples.

Results

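Photosystem II splits water with light energy and passes the electrons to plastoquinone, and its core is fed by an antenna of chlorophyll-binding LHCB proteins. In chloroplasts it is concentrated in the stacked thylakoids called grana. Described here are 4 nuclear genes of this system in Arabidopsis thaliana. PSBW (AT2G30570) and PSBY (AT1G67740) encode small subunits of photosystem II. LHCB1.5 (AT2G34420, listed as LHB1B2 in the gene tables) encodes an antenna protein, and RIQ2 (AT1G74730) encodes a thylakoid protein that affects grana stacking. They were taken by locus from the 692 array features paired with exactly 1 gene, out of 3439 features in all, and each of the 4 was measured by 1 such feature. Another feature was paired with RIQ2 and a further gene, and it was not used here.

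The 12 samples were total RNA of wild-type plants of ecotype C24. In 6 of them the plants had grown under light specific to photosystem I without DCMU (PSI light), and in the other 6 under light specific to photosystem II with DCMU treatment (PSII light with DCMU). DCMU is a herbicide that stops photosystem II from reducing plastoquinone. PSI light drains electrons from the same pool. As the light and the treatment changed together, their shares in a difference cannot be told apart. The labels name no tissue, age or length of treatment, 0 of 10 listed markers of root, guard cell and flower were measured by a feature with 1 gene, and fewer cells of a type and less RNA per cell cannot be told apart in such samples. Samples 1 and 2, 3 and 4, and 5 and 6 of a group acted as technical pairs, so each pair was averaged to a replicate, named replicate 1, 2 or 3 (n = 3 per group). The labels do not state that replicates were separate plants, and the p-values cover no more than the spread of these samples, possibly technical. Values are intensities in the deposited linear units, whose background level is unknown, and changes are log2 differences, PSII light with DCMU minus PSI light.

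RIQ2 was higher under PSII light with DCMU in every sample, about 2.19-fold (95% interval 1.31 to 3.67), and was the 1 gene of the 4 past an adjusted p of 0.05 in the fit without a block. With same-numbered replicates of the conditions matched in a block, RIQ2 did not pass (limma, adjusted p = 0.0777), while PSBY (0.018) and LHCB1.5 (0.0334) did. PSBW and PSBY, the photosystem II subunit genes, stood 1.14-fold and 1.32-fold higher. Their intervals included no change without the block and excluded it with the block. PSBW passed in neither fit, and its sign turned under other scalings. LHCB1.5 stood at 0.789 of its PSI level and just missed the threshold without the block. The count of 1 in 4 is read against 48.5% of all features past the threshold (limma, Benjamini-Hochberg over all features), 26.4% higher and 22% lower, so it is no sign of a shift particular to these genes. The balance of calls over all features followed the scaling, at 21.4% higher and 30.1% lower under quantile normalization and 22.8% and 32.9% with arrays centred on their medians. The genes' own median change was 0.30 on the log2 scale, beside 0.04 over all features, and the median size of their changes without sign was 0.37, beside 0.50. The median intensity of a sample, over all features, was 0.542 to 0.584 under PSI light and 0.632 to 0.688 under PSII light with DCMU. Mean intensities of the samples lay within 3.25% of their average, so the conditions differ in the median but little in the mean. Beyond the quantile normalization and the median centring of the arrays, whose values are given below, the part of this difference in the results was not tested.

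**Figure D1:**
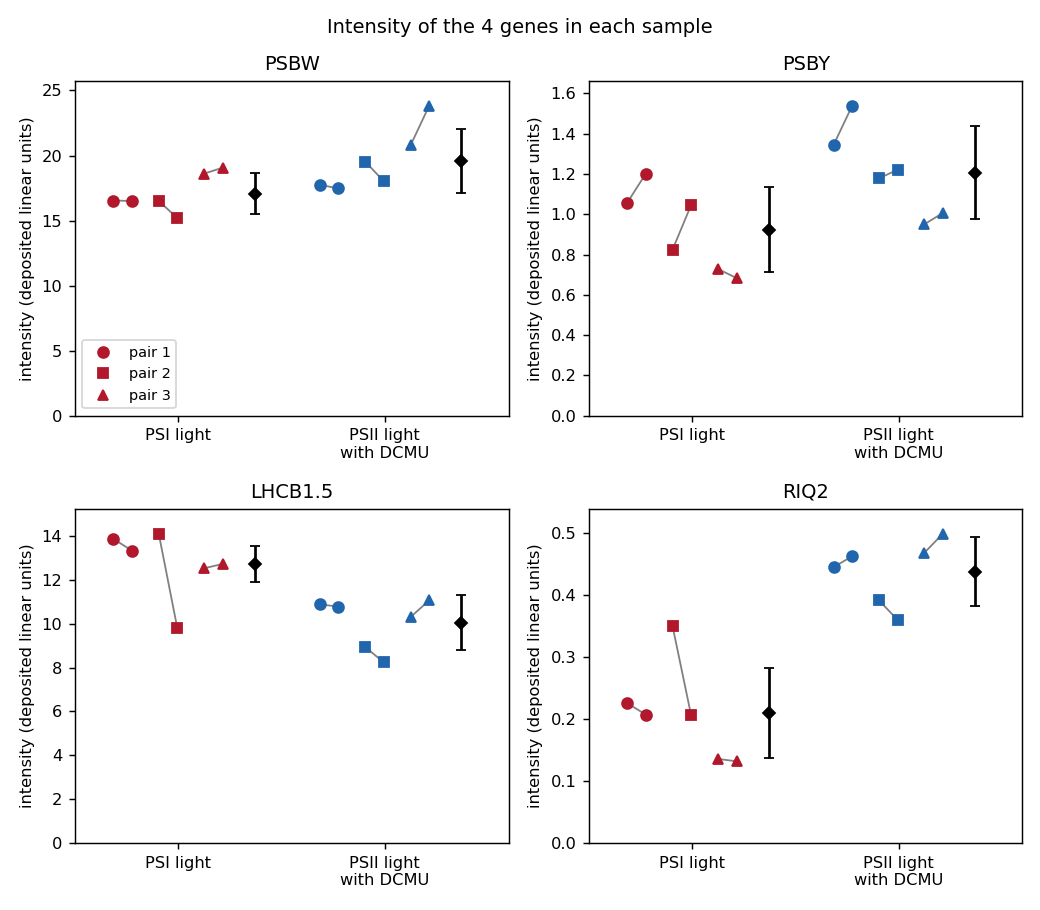
Intensity of the 4 genes (vertical axes, deposited linear units, from 0) in the 6 samples of each light condition; lines join the samples of a technical pair, marker shapes show the pair, and black diamonds with bars are the mean and SD of the 3 replicates. RIQ2 has every PSII_DCMU sample above every PSI sample, whereas single samples of PSBW, PSBY and LHCB1.5 overlap between the conditions.

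PSBW is a nuclear-encoded membrane protein of photosystem II that in Arabidopsis helps to hold the photosystem and its antenna together in supercomplexes. Its intensity under PSI light was 15.2 at the lowest, 16.5 at the median and 19.1 at the highest of 6 samples. Under PSII light with DCMU it was 17.5, 18.8 and 23.8. Replicate 3 was the highest in both conditions, and the ranges overlapped. Means of the replicates were 17.1 ± 1.57 and 19.6 ± 2.44 (SD, n = 3). The change was 0.19 ± 0.118 (log2, SE), with a 95% interval of -0.11 to 0.50 and an adjusted p of 0.235 (limma), and an exact two-sided permutation test of 3 against 3 replicates gave p = 0.3, where the design allows none below 0.1. A rise of up to 1.41-fold or a fall to 0.925 of the PSI level therefore lay within the interval. The direction turned under quantile normalization (-0.033, adjusted p = 0.778) and with arrays centred on their medians (-0.026, adjusted p = 0.899).

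PSBY is a small subunit at the edge of photosystem II, near cytochrome b559, and in Arabidopsis its gene encodes a precursor that is cut into separate mature proteins. Its intensity under PSI light was 0.684 at the lowest, 0.935 at the median and 1.201 at the highest. Under PSII light with DCMU the values were 0.951, 1.2 and 1.54. The highest PSI sample reached the middle of the other group, and the ranges overlapped. Replicate means were 0.923 ± 0.212 and 1.21 ± 0.231 (SD, n = 3), and the change of 0.40 ± 0.231 (log2, SE) had a 95% interval of -0.20 to 0.99 (limma, adjusted p = 0.213; exact permutation p = 0.2). With arrays centred on their medians the change was 0.18, and under quantile normalization it was 0.46. The standard error of PSBY was larger than the median of 0.153 over all features. In PSBY the SD of the replicates was 0.34 under PSI light and 0.28 under PSII light with DCMU, and the median difference within a pair was 0.14 (all log2). Over all features the medians of these values were 0.23, 0.13 and 0.10. An SD of replicates and a difference between samples of a pair are not like measures.

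LHCB1.5 belongs to the LHCB1 genes, whose protein is the main component of the trimeric antenna of photosystem II. It fell short of the threshold with replicates that did not overlap. Under PSI light the 6 samples had a lowest intensity of 9.80, a median of 13.01 and a highest of 14.1. Under PSII light with DCMU the values were 8.23, 10.5 and 11.05. Of the PSI samples, only sample 4, at 9.80, lay within the range of the other group. Replicate means were 12.7 ± 0.825 and 10.03 ± 1.25 (SD, n = 3). The change was -0.34 ± 0.117 (log2, SE), with a 95% interval of -0.64 to -0.040 and an adjusted p of 0.0651 (limma; unadjusted p = 0.0335), and the exact permutation p was 0.1, the smallest 3 against 3 can give. Replicates without overlap were found in 60.7% of all features. With arrays centred on their medians, the change was -0.56 and passed (limma, adjusted p = 0.00805), as did 55.6% of all features, and under quantile normalization it was -0.20. The LHCB1 genes are close relatives, so the feature may also have detected other members of the family, which was not tested.

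RIQ2, with its relative RIQ1, limits grana stacking in Arabidopsis: plants without it have more layers per granum. Its feature was dim. Under PSI light its intensity was 0.132 at the lowest, 0.207 at the median and 0.351 at the highest of 6 samples. Under PSII light with DCMU it was 0.361, 0.454 and 0.500. The conditions did not overlap in any sample, as in 48.7% of all features, but the highest PSI sample and the lowest PSII_DCMU sample nearly met, and both came from replicate 2. Replicate means were 0.21 ± 0.0724 and 0.438 ± 0.0557 (SD, n = 3). The rise was 1.13 ± 0.287 (log2, SE; limma, adjusted p = 0.0283; exact permutation p = 0.1, the smallest possible). All 12 values lay above the floor of 0.0431 set under the intensities, but both samples of PSI replicate 3 (0.136 and 0.132) lay under the higher floor of 0.139 tried as an alternative. With that floor the change was 1.12, and with 0.139 as a pseudocount it was 0.75, both past the threshold (limma, adjusted p = 0.0269 and 0.0156). The call of RIQ2 was lost when PSI replicate 1 or any 1 of the PSII_DCMU replicates was left out (limma, adjusted p = 0.0597 to 0.0888). Calls were fewer over all features too, at 41.8% without PSI replicate 1 and 33.1% to 34.5% without a PSII_DCMU replicate, beside 48.5% with all replicates. RIQ2 also lost its call under quantile normalization, where the change was 0.55 and the adjusted p 0.0684, and where 51.5% of all features passed. With arrays centred on their medians it was 0.91 and passed (adjusted p = 0.0124). Blocked on pair number, RIQ2 did not pass (adjusted p = 0.0777).

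The pair numbers also matched replicates across the conditions, and the matched differences varied less in some of the 4 genes than in others. PSBY was higher by 0.35, 0.37 and 0.47 (log2) in replicates 1, 2 and 3 of PSII light with DCMU than in the same-numbered PSI replicates. These differences were nearly equal although the level of PSBY itself varied, with replicate 1 the highest and replicate 3 the lowest in both conditions. LHCB1.5 was lower in each matched replicate, by -0.33, -0.45 and -0.24, and its replicate 2 was the lowest in both conditions. PSBW was higher by 0.092, 0.24 and 0.24. RIQ2 was higher by 1.07, 0.48 and 1.85, a spread wider than that of the other genes, since replicate 3 was its lowest under PSI light and its highest under PSII light with DCMU. All 4 genes kept 1 sign over the 3 numbers, as did 74.3% of all features.

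In the fit blocked on pair number, PSBY (0.40 ± 0.0473, log2, SE, adjusted p = 0.018) and LHCB1.5 (-0.34 ± 0.0625, adjusted p = 0.0334) passed the threshold, PSBW did not (0.19 ± 0.0549, adjusted p = 0.075), and RIQ2 lost its call (1.13 ± 0.33, adjusted p = 0.0777; all limma). In that fit 48.2% of all features passed, against 2 of the 4 genes. The 95% intervals were 0.24 to 0.55 for PSBY, -0.54 to -0.14 for LHCB1.5 and 0.014 to 0.37 for PSBW. For RIQ2 the interval widened to between 0.062 and 2.204. Which of the genes passed thus turned on whether replicates were matched by number.

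**Figure D2:**
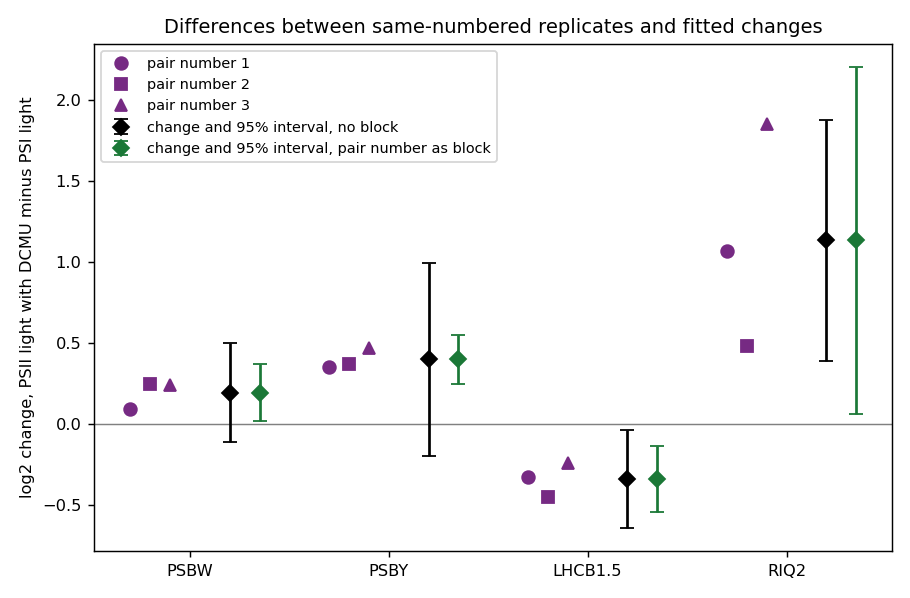
Log2 change of each gene between same-numbered replicates (purple, marker shape by pair number), with the fitted change and its 95% interval without a block (black) and blocked on pair number (green). The matched differences of PSBY lie between 0.35 and 0.47, and those of RIQ2 between 0.48 and 1.85.

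Ratios between the genes within a replicate do not depend on how an array as a whole is scaled. Only their changes are given, since levels of different features cannot be compared, and no test was made. The ratio of PSBW to LHCB1.5 was higher by 0.53 on the log2 scale (1.45-fold) under PSII light with DCMU, and by 0.42, 0.70 and 0.48 in matched replicates 1, 2 and 3. The ratio of PSBY to LHCB1.5 was higher by 0.74 (1.67-fold), with matched differences of 0.68, 0.82 and 0.71. Between the subunit genes, the ratio of PSBW to PSBY differed by -0.21 and its replicates overlapped. The ratios to RIQ2 were all lower under PSII light with DCMU: the ratio of LHCB1.5 to RIQ2 changed by -1.47, that of PSBW to RIQ2 by -0.94 and that of PSBY to RIQ2 by -0.74. Their matched differences were wide, at -0.97, -0.24 and -1.61 for PSBW to RIQ2, at -0.71, -0.11 and -1.38 for PSBY to RIQ2 and at -1.39, -0.94 and -2.09 for LHCB1.5 to RIQ2. In all of the 6 ratios but that of PSBW to PSBY the replicates of the conditions did not overlap. The ratios are built from 4 genes, so they are not 6 separate cases. No share was computed for ratios of other features, and the 60.7% of single features without overlap is not a like measure. Quantile normalization, which alters each feature by its rank, brought the ratio of PSBW to LHCB1.5 to 0.17 and that of PSBY to RIQ2 to -0.082, but left that of PSBY to LHCB1.5 at 0.66. The ratios also depended on the place of a feature in the order of feature numbers, described below. With place taken out, the ratios to RIQ2 came to -0.030 for PSBY, -0.39 for PSBW and -0.92 for LHCB1.5. PSBW to PSBY came to -0.36 and PSBY to LHCB1.5 to 0.89. PSBW to LHCB1.5, which share a place, stayed at 0.53 in this setting. Place was also taken out of each feature's deviations from its own mean, a setting added later. There PSBW to LHCB1.5 came to 0.59, PSBW to PSBY to -0.42 and PSBY to LHCB1.5 to 1.02. The ratios to RIQ2 were then -0.24 for PSBY, -0.66 for PSBW and -1.25 for LHCB1.5, so their size depended on how place was taken out.

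**Figure D3:**
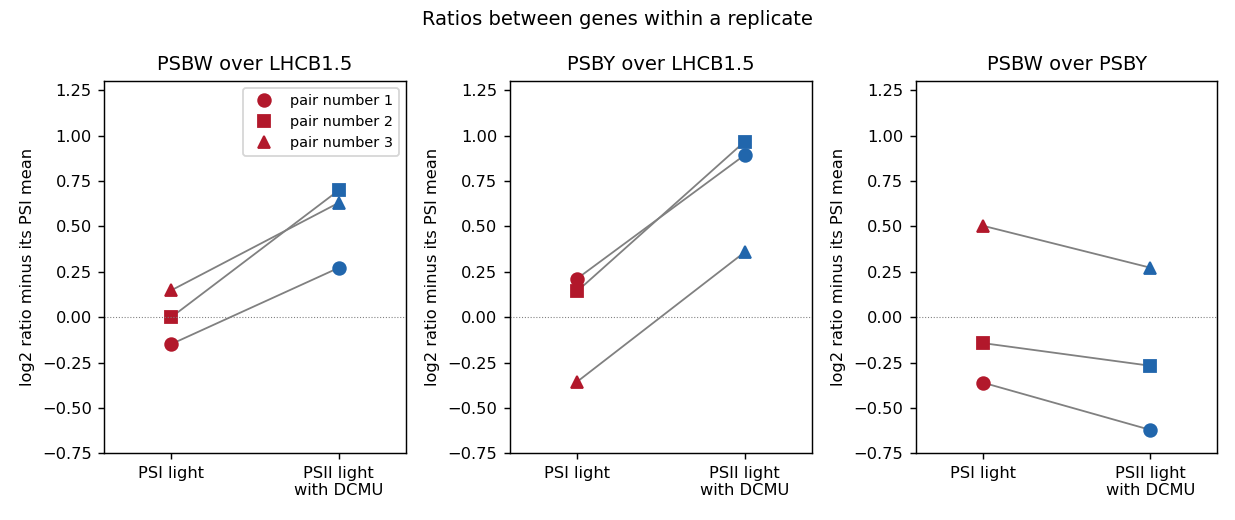
Log2 ratio of intensities between 2 genes in each replicate, shown as the difference from its mean under PSI light; lines join same-numbered replicates and marker shapes show the pair number. PSBW over LHCB1.5 and PSBY over LHCB1.5 are higher under PSII light with DCMU in all 3 matched replicates, and PSBW over PSBY is lower in all 3 with overlapping groups.

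The technical pairs were closest in PSBW, whose samples of a pair differed by a median of 0.075 (log2), followed by LHCB1.5 (0.079), RIQ2 (0.11) and PSBY (0.14), beside 0.10 for all features. PSI samples 3 and 4 were the widest pair of 3 of the genes. They differed by 0.52 in LHCB1.5, 0.76 in RIQ2 and 0.34 in PSBY, whereas over all features the median difference of this pair was 0.134, between those of the other PSI pairs (0.119 and 0.162). Sample 3 was the higher of the pair in LHCB1.5, RIQ2 and PSBW (16.5 and 15.2) and the lower in PSBY. In settings chosen after this was seen, in which 47.6% (without sample 4) and 47% (without sample 3) of all features passed, leaving out sample 4 brought LHCB1.5 to -0.43 and past the threshold (limma, adjusted p = 0.0307) and took RIQ2 to 1.01 and out of it (adjusted p = 0.0812). Leaving out sample 3 instead gave -0.25 for LHCB1.5 (adjusted p = 0.263) and 1.26 for RIQ2 (adjusted p = 0.0104). Whether these genes passed therefore depended on 1 sample, while PSBY and PSBW stayed short of the threshold in both settings.

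Changes over the whole array followed the brightness of a feature and its place in the order of feature numbers, counted in runs of equal length, and the 4 genes sat in different parts of that pattern. PSBW and LHCB1.5 were among the brightest features, ranked 13 and 26 of 3439, and shared place 73. The 100 features nearest to PSBW in brightness had a median change of -0.45, and those nearest to LHCB1.5 had -0.55. Most of these neighbours were dimmer than the genes themselves. Of them, 67% had a change below that of PSBW and 57% one below that of LHCB1.5. PSBY, at place 14, had neighbours in brightness at -0.27, and 82% of these lay below it. Of the 15 other features above the floor at its place, 12 were lower and 3 higher under PSII light with DCMU, with a median of -0.35. RIQ2 was dim, at rank 2811 of 3439, where rises were common: its neighbours in brightness had a median of 0.71, and 65% of these lay below it. Of the 12 other features above the floor at its place, 205, 9 were higher and 3 lower, with a median change of 0.099.

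**Figure D4:**
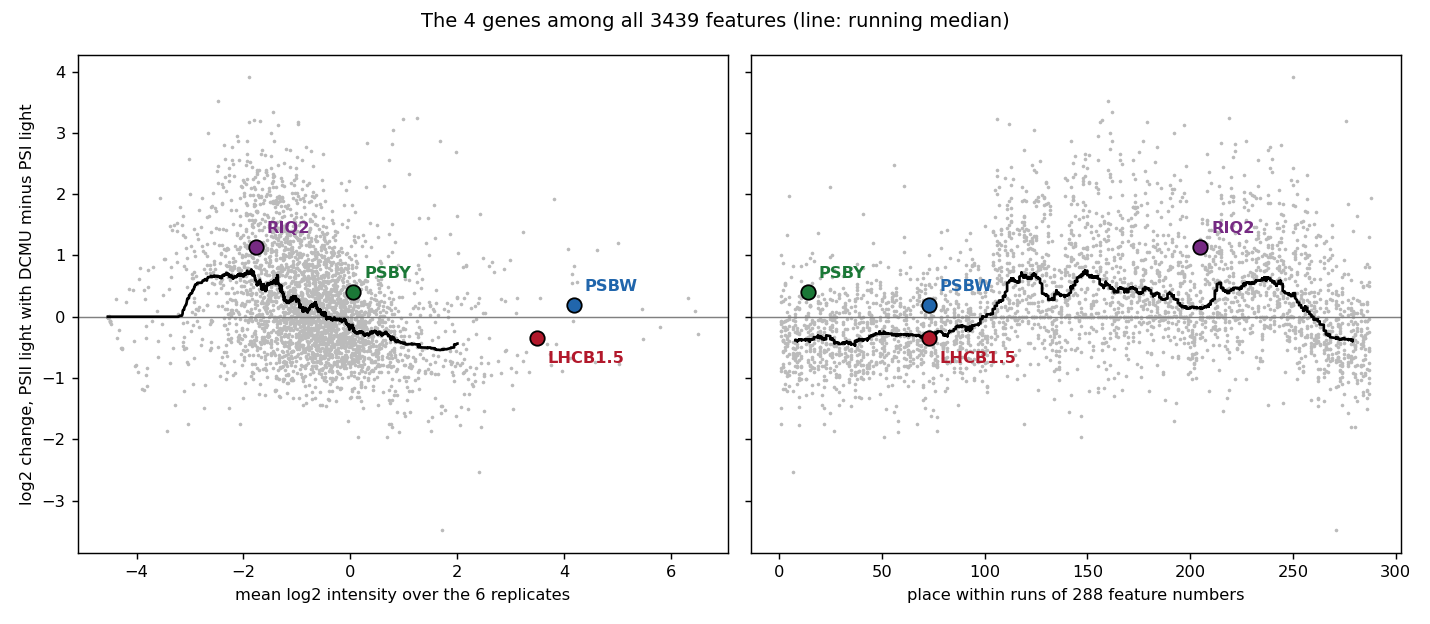
Log2 change of all 3439 features (grey) against mean log2 intensity and against place within runs of feature numbers, with the 4 genes marked and a running median as a black line. PSBW, PSBY and RIQ2 lie above the running median at their place, and LHCB1.5 and PSBW share a place; the brightness line ends before the range of these last genes because few features are as bright.

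Place was taken out by subtracting, in every replicate, the median log2 intensity of the other features above the floor there. That median is over levels, so its shift between the conditions need not equal the median change at the place. PSBY came to 0.71 ± 0.189 and past the threshold (log2, SE, limma, adjusted p = 0.0124). RIQ2 came to 0.74 ± 0.21 and kept its call (adjusted p = 0.0166). PSBW came to 0.35 ± 0.144 (adjusted p = 0.0693) and LHCB1.5 to -0.18 ± 0.159 (adjusted p = 0.362). For LHCB1.5 this was close to its standard error. With place taken out of each feature's deviations from its own mean, the setting added later, LHCB1.5 stood at -0.33 (limma, adjusted p = 0.0726). RIQ2 (0.92, adjusted p = 0.00906) and PSBY (0.69, adjusted p = 0.0121) passed there, as did 49.3% of all features. With place taken out in the first way and pair number as a block in addition, the calls were the same (limma, adjusted p = 0.00413 for PSBY and 0.0178 for RIQ2). With place taken out in the first way, 48.5% of all features passed without the block and 52.5% with it, so 2 of 4 genes is near the background. The correction is crude, because it also gave a call to 91 of 141 features whose values were under the floor in every sample.

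Other processings re-use the same samples, so a direction kept over them is not separate support for it. Blocking cannot alter the estimated change. Nor can leaving out 1 replicate turn the sign of LHCB1.5 or RIQ2, whose replicates did not overlap. Over 22 other processings the change of PSBY ran from 0.18 to 0.82 and that of RIQ2 from 0.55 to 1.35, all higher under PSII light with DCMU. LHCB1.5 ran from -0.56 to -0.075, all lower. PSBW was the exception, with the negative values given above. RIQ2 passed the threshold in 14 of the 22, PSBY in 6, LHCB1.5 in 4 and PSBW in 0. In the same 22 processings, 33.1% to 55.6% of the features tested passed.

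**Figure D5:**
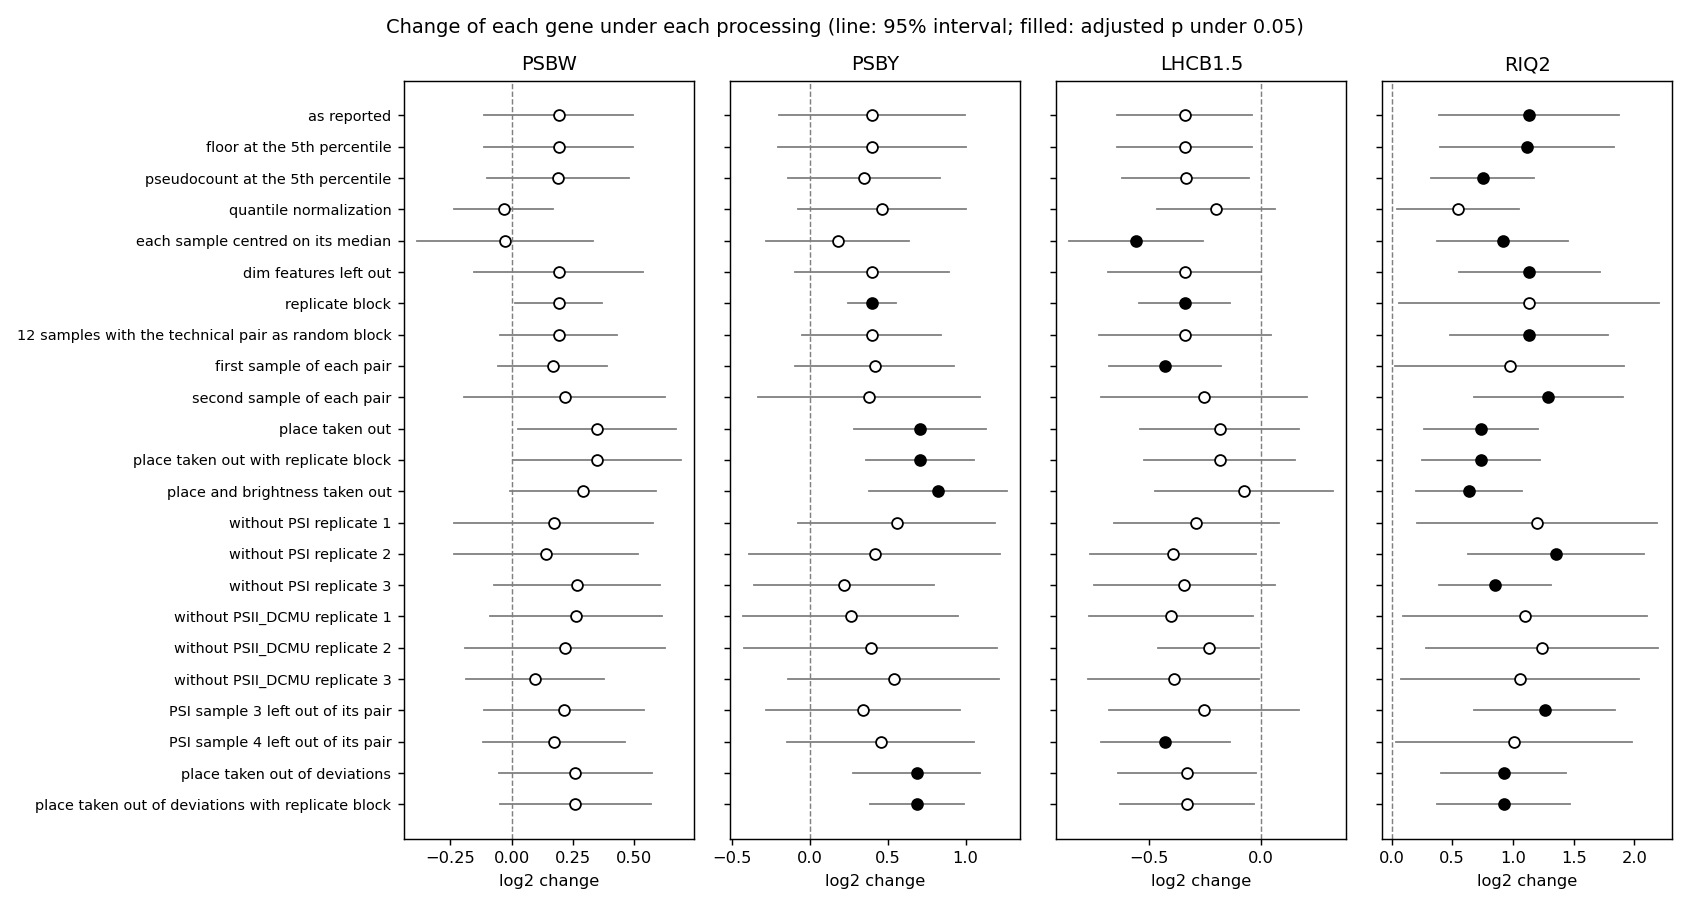
Log2 change of each gene (horizontal axes, PSII light with DCMU minus PSI light) as reported and under the 22 other processings, with 95% intervals as lines and filled points where the adjusted p was under 0.05. RIQ2 is filled in 14 of the 22 others, and PSBW in none, where 33.1% to 55.6% of the features tested passed.

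Few other genes of these systems were measured by a feature with 1 gene. Of 12 listed photosystem II subunit genes, PSBW and PSBY were measured. LHCB1.5 was the 1 measured gene of 21 antenna genes, and RIQ2 the 1 of 11 genes of grana and state transitions, so neither stands for its list. Of 9 listed assembly genes of photosystem II, 3 were measured and all 3 fell (limma, adjusted p = 0.00309 to 0.00451), beside 22% of all features that passed and were lower, or 30.1% under quantile normalization and 32.9% with median centring: PSB27 by 1.18 ± 0.154, LPA19 by 0.88 ± 0.119 and RBD1 by 0.59 ± 0.0686 (log2, SE). With place taken out these stood at -0.95, -0.41 and -0.18, and RBD1 no longer passed (adjusted p = 0.358), where 48.5% of all features passed in either direction. PSAN, the 1 measured gene of 12 listed photosystem I subunits, stood at 0.13 ± 0.0811 (adjusted p = 0.252). Its sign turned with arrays centred on their medians (-0.091), and under quantile normalization it passed (0.45, limma, adjusted p = 0.0158), as did 51.5% of all features. PSAN also passed with place taken out of each feature's deviations (0.50, adjusted p = 0.0152), as did 49.3% of all features. With place taken out in the first way it did not (0.21, adjusted p = 0.284).

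The genes whose log2 intensity followed a member most closely over the 12 samples were picked from 634 single-gene features as the 3 with the highest Pearson correlation. Because samples of a pair and the difference between conditions enter these correlations, they describe likeness only. PSBW had the loosest matches, AT5G48830 (r = 0.79), AT5G35100 (0.75) and PSAN (0.74). PSBY was matched by AT2G39670 (0.91), AT3G57120 (0.89) and AT5G62360 (0.88), none of which passed the threshold. LHCB1.5 was matched by AT5G26880 (0.91), AT2G34050 (0.88) and AT4G15530 (0.88), with changes of -0.32, -0.30 and -0.32 close to its own, and the feature of AT5G26880 shares place 73 with it. RIQ2 was matched by AT3G29410 (0.95), AT1G24360 (0.95) and AT5G39980 (0.95), with changes of 1.497, 1.04 and 0.68, the last short of the threshold (limma, adjusted p = 0.0729).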

How the data were processed

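Expression was measured on arrays in 12 samples, grouped by their titles. The deposited table holds linear intensities, 1 for each feature in each sample. Array type, background correction and scaling by the authors are not given in the sources used. Column means lay within 3.25% of their average and column medians within 11.92%. The rule was to rescale only if both differed by over 10%, so the values were kept as deposited. Values under the 1st percentile of the positive intensities (0.0431) were set to it, log2 was taken, and technical pairs were averaged. Samples of a pair correlated at 0.38 to 0.66 in their deviations from the group mean, while samples of different pairs did so at -0.51 to -0.18. Same-numbered replicates of the 2 groups correlated at 0.29 to 0.36, others at -0.33 to 0.0029. Deviations cancel out within a group, so the low values across different pairs and numbers follow in part from the calculation. The numbers were taken to pair the replicates, a reading that comes from the data. Groups were compared by limma 3.58.1 (lmFit, eBayes; R 4.3.3), without a block, with Benjamini-Hochberg adjustment over 3439 features. The fit was tested on simulated data. Tables and figures were made with Python 3.11.15 and matplotlib 3.10.9. Intensities are mean ± SD of pair means on the linear scale.

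Gene names come from the array platform's annotation, which can be old and gave 1 gene for 692, several for 870 and none for 1877, and 690 matched the TAIR10.1 gene table. LHCB1.5 and RIQ2 are names in common use for their loci. The members and gene lists were chosen with earlier results of these data known. Genes other than the 4 members were named if they were measured list members or among the 3 features most correlated with a member.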

Additional observations from a re-analysis of the deposited data

Results flagged for a closer look

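In LHCB1.5, PSI sample 4 stood apart from the other 5 PSI samples: its gap to the nearest, divided by the range of the 6, was 0.632, above Dixon's 95% critical value for 6 samples. Its intensity was 9.80, and that of its technical partner, sample 3, was 14.1. It was 1 of 8 combinations of gene and condition examined, and chance gives such a gap in about 1 of 20, with the samples in technical pairs rather than independent. RIQ2 in the PSI samples, where sample 3 was the highest, came next at 0.57 and did not reach the critical value.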

How the results depend on the processing

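The count of 1667 features past the threshold was 1138 to 1685 when 1 replicate was left out and 1541 to 1913 under 16 other alternatives. PSBW kept its direction except under quantile normalization (-0.033) and median centring of the arrays (-0.026), and passed under none, with adjusted p of 0.0693 to 0.899. PSBY did not pass as reported but passed with the replicate block (0.40), with place taken out (0.71, also with the replicate block), with place and brightness taken out (0.82) and with place taken out of each feature's deviations (0.69, also with the replicate block), the last chosen after the data were seen. LHCB1.5 passed under median centring (-0.56), with the replicate block (-0.34), with the first sample of each pair (-0.43) and without PSI sample 4 (-0.43). RIQ2 did not pass after quantile normalization (0.55), with the replicate block (1.13), with the first sample of each pair (0.97) or without PSI sample 4 (1.01). Leaving out 1 replicate gave 0.095 to 0.27 for PSBW, 0.22 to 0.56 for PSBY, -0.40 to -0.23 for LHCB1.5 and 0.85 to 1.35 for RIQ2. The causes were not tested. The number of arrays limits the precision, and the background level is unknown. With a pseudocount of 0.139 the change of RIQ2 was 0.75.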
